A study of Homo sapiens with 30 samples.

Results

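The early growth response genes EGR1, EGR2, EGR3 and EGR4, the nuclear receptor genes NR4A1, NR4A2 and NR4A3, the immediate early gene IER2 and the EGR corepressor genes NAB1 and NAB2 were examined in RNA-Seq libraries of human cancer cells treated with Omomyc. This miniprotein, built from the basic helix-loop-helix region of MYC with an altered leucine zipper, acts as a dominant negative. The study reports that it also binds E box DNA itself. The genes were chosen by family and symbol, and all 10 were found among the 57992 genes of the expression table. HCT116 cells, a colon carcinoma line labelled as having stabilized MYC, were left untreated or exposed for 6 or 24 h to Omomyc at 2 or 10 μM. Ramos cells, a line of Burkitt's lymphoma with a MYC translocation, were likewise left untreated or exposed to Omomyc at 500 nM or 2.5 μM for 6 or 24 h. Each of the 10 groups had 3 replicates, and neither the labels nor the methods say whether these were separate cultures, so the p-values measure the spread between these libraries only. Each line had a single untreated group with no time point, which the 4 comparisons with treated cells of that line share. The study's methods give the lower HCT116 dose as 2.5 μM, and a tag of the HCT116 libraries titled 24 h reads 4 h. The labelled 2 μM and the titled 24 h are used here. HCT116 cells received Omomyc with ProteoJuice, a protein transfection reagent, in a reduced-serum medium, and the methods add medium with serum for incubations past 4 h, which takes in both the 6-h and the 24-h groups. The wording of the methods does not settle whether cells without Omomyc received the reagent and the same change of medium, so in HCT116 cells a difference made by Omomyc and one made by reagent, medium or serum cannot be told apart. The methods used here do not describe how Ramos cells were treated for RNA-Seq.

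EGR proteins are zinc finger transcription factors that bind GC-rich sites, and NR4A proteins are orphan nuclear receptors. Serum, growth factors, stress and antigen receptor signals raise the transcription of both families within minutes and without new protein synthesis, in large part through serum response factor (SRF) bound to CArG boxes and through CREB, and the short-lived transcripts then fall again. NAB1 and NAB2 bind EGR proteins and restrain their activity, and NAB2 is itself a target of EGR proteins. In B cells, the B cell receptor induces EGR1, EGR2 and NR4A1.

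The genes lie on several chromosomes (GENCODE release 29, GRCh38). EGR1 is at chr5:138465490-138469315 on the plus strand, EGR2 at chr10:62811996-62919900 on the minus strand and EGR4 at chr2:73290929-73293705 on the minus strand. NR4A1 is at chr12:52022832-52059507 (plus), NR4A2 at chr2:156324432-156342348 (minus) and NR4A3 at chr9:99821855-99866891 (plus). IER2 is at chr19:13150415-13154908, NAB1 at chr2:190646746-190692766 and NAB2 at chr12:57088894-57095476, all on the plus strand. NAB2 overlaps STAT6 on the other strand, and EGR3, NR4A1, IER2 and NAB1 overlap noncoding genes on the other strand. The library kit keeps strand, and whether the counting used it is not given in the sources used here.

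Promoter sequences were taken from RefSeq (GRCh38.p14), which gave 13 start-site windows for 8 of the 10 genes. EGR3 and NR4A2 had no entry. Each window ran from 250 bases before to 50 bases after a start and was searched on both strands. The CArG box, the site of SRF (CC, then A or T at each of 6 positions, then GG), was present in 1.29% of the 35116 windows in RefSeq's table. EGR1 held 2, at -105 to -96 and at -83 to -74 from the start, and EGR2 held 1, at -71 to -62 from its most downstream start. GCGGGGGCG, a site of the kind that EGR proteins bind, was present in 5.07% of windows. It was found 2 times, overlapping itself, before the first start of NAB1, at -42 to -34 and -36 to -28, and 1 time before NAB2, at -62 to -54. Of the 3 EGR2 starts the one with the CArG box was taken for printing, and of the 3 NAB1 starts the first. The 130 bases before these 4 starts are printed because EGR1 and EGR2 are the main EGR transcripts of these lines and NAB1 and NAB2 are the corepressors of their products. They are chr5:138465349-138465478 (plus strand), chr10:62816367-62816496 (minus), chr2:190648765-190648894 (plus) and chr12:57088984-57089113 (plus), written 5′ to 3′, with CArG boxes or GCGGGGGCG on either strand in capitals.
EGR1: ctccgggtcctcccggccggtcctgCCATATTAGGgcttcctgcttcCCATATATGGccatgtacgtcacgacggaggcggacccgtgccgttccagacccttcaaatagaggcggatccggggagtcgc
EGR2: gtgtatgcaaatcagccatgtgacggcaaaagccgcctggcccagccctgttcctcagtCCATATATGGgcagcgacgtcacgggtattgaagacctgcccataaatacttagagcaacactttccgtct
NAB1: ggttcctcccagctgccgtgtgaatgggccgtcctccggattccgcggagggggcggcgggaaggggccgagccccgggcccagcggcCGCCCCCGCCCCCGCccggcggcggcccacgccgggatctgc
NAB2: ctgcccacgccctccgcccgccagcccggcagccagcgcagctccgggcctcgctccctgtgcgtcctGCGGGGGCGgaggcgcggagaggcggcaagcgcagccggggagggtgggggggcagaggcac
The windows of NR4A1, NR4A3, IER2 and EGR4 held none of these letters. GCGTGGGCG, another EGR site, was found at 14 to 22 after the first start of NAB1, which the overlapping window of its second start also holds, and in 0.795% of windows, and the full CREB site TGACGTCA was found in none of the 13 and in 1.85% of windows. CACGTG, the E box that MYC binds, was found before 1 of the 3 EGR2 starts, at -30 to -25, and occurs in 7.26% of windows. CCGGAAG, a site of ETS factors, was found before IER2, at -27 to -21, and in 10.3% of windows, and AAAGGTCA, a site of NR4A proteins, was found in none of the 13 and in 1.22% of windows. The GC box GGGCGG, which overlaps GCGGGGGCG in NAB1 and in NAB2, was found in 45.0% of windows. A match of letters shows neither that a factor was bound nor that it acted in these cells.

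Expression was deposited as RPKM, a read count divided by gene length and library depth, so levels of different genes can be compared per length. Sums over all genes ranged from 593633 to 1051040 RPKM. In HCT116 cells they differed with treatment, at 593633 to 660769 untreated, 742468 to 1051040 at 6 h and 659047 to 729627 at 24 h. Low values of genes with a single annotated transcript were whole multiples of the value of 1 read in 83.2 to 86.9% of cases (within 0.05 of a read). A single read of EGR4 was worth an RPKM of 0.00973 to 0.0226, depending on the depth of the library. Replicate 3 of HCT116 cells with 10 μM Omomyc at 6 h had both the highest sum and the fewest inferred reads. Of 8 epithelial markers, 7 averaged an RPKM of at least 2 in HCT116 cells and 0 did in Ramos cells, and CDH17 was under 0.5 in both lines. All 8 B cell markers passed that level in Ramos cells and 0 in HCT116 cells, where their sum stayed between 0.784 and 3.14.

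Before treatment, the lines differed in their main EGR transcript, whereas NR4A1 was the main NR4A transcript of both. EGR1 was the main EGR transcript of HCT116 cells, with RPKM of 21.8, 20.3 and 21.5 in the untreated replicates, and was lower in Ramos cells, with 4.40, 3.37 and 3.56. EGR2, known for its roles in hindbrain and Schwann cells and in lymphocytes, showed the reverse, with 0.708, 0.941 and 0.491 in HCT116 cells and 32.7, 30.1 and 30.5 in Ramos cells. No library of one line reached into the range of the other for either gene. NR4A1 (Nur77) had the higher levels in Ramos cells, at 14.1 ± 0.931 (mean ± SD, n = 3) against 6.31 ± 0.968, and NR4A3 (NOR1) likewise, at 2.09 ± 0.374 against 0.176 ± 0.0654. NR4A2 (Nurr1) was higher in HCT116 cells, at 3.84 ± 0.342 against 0.212 ± 0.0669. IER2, a small nuclear protein of the immediate early response, was at 48.0 ± 4.22 in HCT116 cells and 19.2 ± 2.25 in Ramos cells. NAB1 and NAB2 differed less, with 24.6 ± 1.06 and 28.3 ± 0.736 in HCT116 cells and 15.1 ± 0.818 and 24.9 ± 0.296 in Ramos cells.

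For this and every comparison that follows, limma was fitted to log2(RPKM + 0.5) for all genes whose RPKM averaged 0.5 or more across the libraries compared, and a gene was called at a Benjamini-Hochberg adjusted p under 0.05 over all of them. A fold change on this scale understates the change of a low gene. Between untreated HCT116 and untreated Ramos cells, 8 of the 10 genes could be tested and all 8 were called, 5 higher and 3 lower in HCT116 cells, where 84.6% of all genes tested were called. NR4A2 passed the filter only through its level in HCT116 cells and NR4A3 only through its level in Ramos cells. The largest difference was that of EGR2, with a log2 difference of -4.72 ± 0.13 (standard error; limma adjusted p = 5.65e-08), and the smallest that of NAB2, at 0.18 ± 0.04 (limma adjusted p = 0.00559). When all 10 groups were fitted together NAB2 was no longer called (limma adjusted p = 0.125). EGR3, a relative of EGR2, and EGR4 averaged 0.692 and 0.0791 in HCT116 cells and 0.268 and 0.370 in Ramos cells and fell under the filter. In the fit without the filter EGR3 was higher in HCT116 cells, at 0.63 ± 0.14 (limma adjusted p = 0.00903), and EGR4 lower, at -0.58 ± 0.09 (limma adjusted p = 0.00208).

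**Figure D1:**
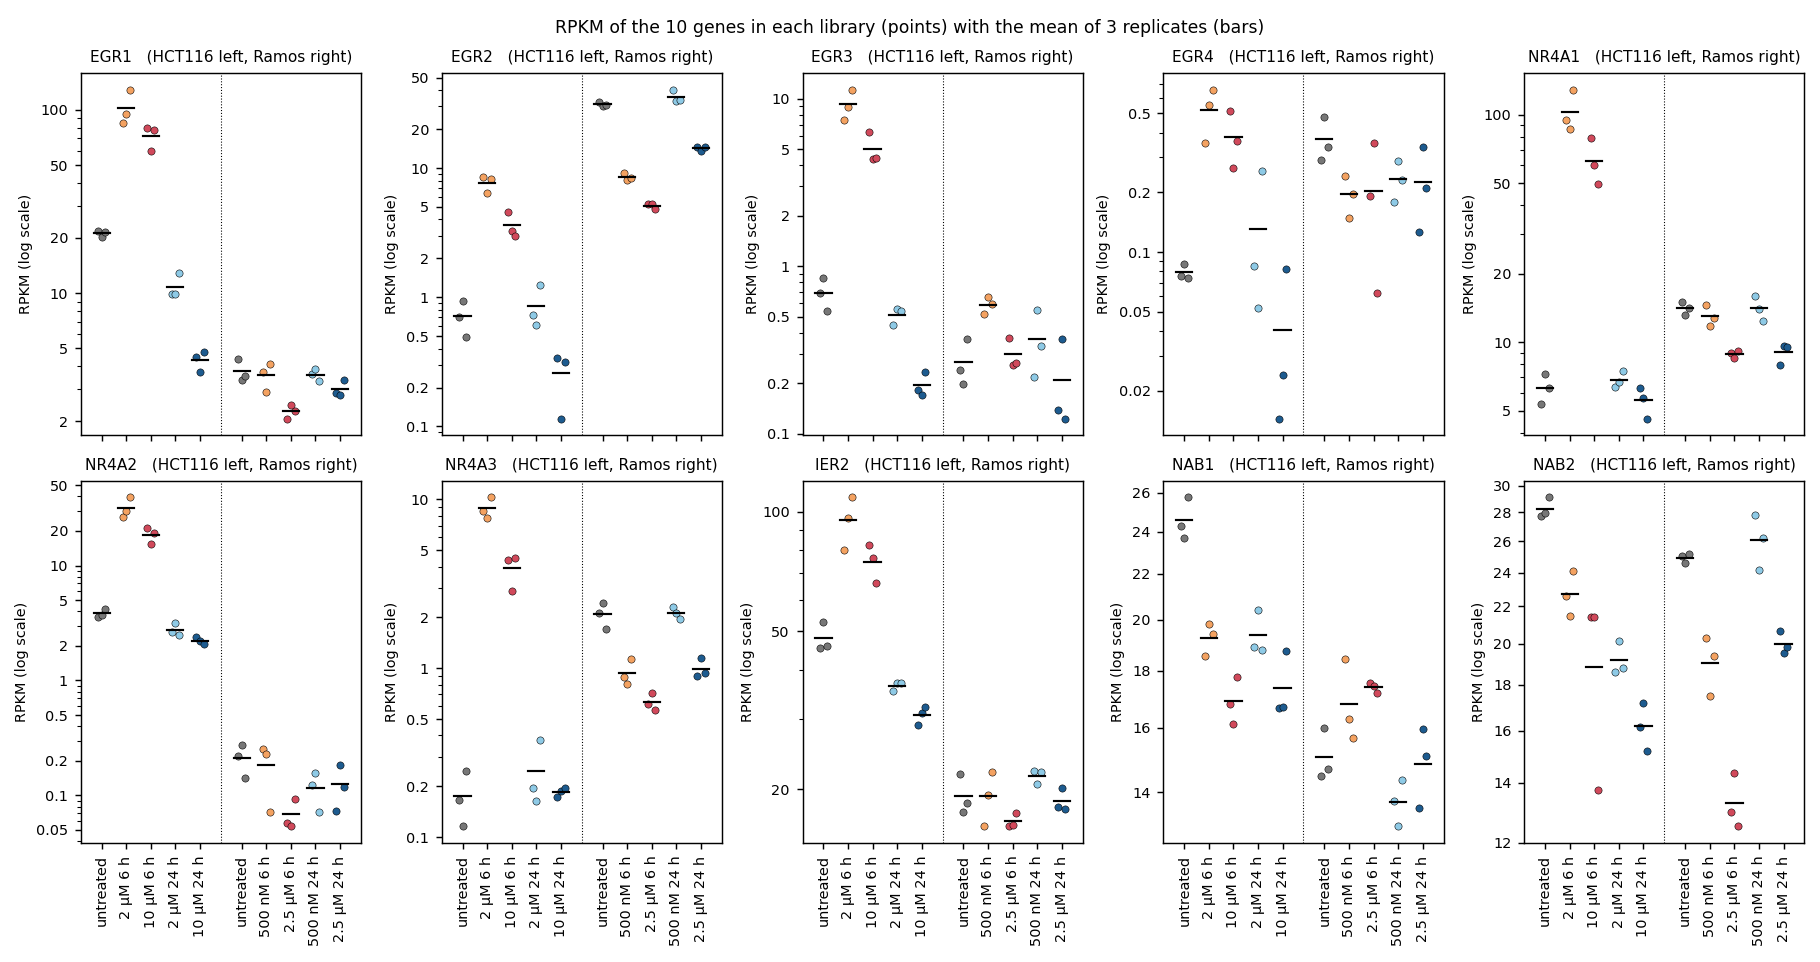
RPKM (log axis, a different range in each panel) of the 10 genes in each library, with HCT116 groups left and Ramos groups right of the dotted line; points are replicates and bars are means of 3. In HCT116 cells the EGR and NR4A genes and IER2 stand highest in the 6-h groups, whereas in Ramos cells EGR2, NR4A3 and NAB2 stand lowest in the 6-h group with 2.5 μM.

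At 6 h in HCT116 cells, 7 of the genes rose and NAB1 and NAB2 fell at both doses. EGR1 reached RPKM of 84.6, 94.8 and 129 with 2 μM Omomyc and 79.4, 59.8 and 77.3 with 10 μM, against 20.3 to 21.8 in the untreated replicates, a ratio of means of 4.84 and 3.40. EGR2 reached 8.47, 6.42 and 8.20 with 2 μM and 4.54, 3.26 and 3.0 with 10 μM, from no more than 0.941 in untreated cells. EGR3 reached 7.50, 8.90 and 11.3 with 2 μM and 6.29, 4.37 and 4.41 with 10 μM, from no more than 0.846. None of the treated libraries overlapped the untreated ones for these 3 genes. EGR4 stayed near the limit of what could be measured, with 7 to 9 reads in untreated libraries, 20 to 44 with 2 μM and 16 to 33 with 10 μM, as inferred from its RPKM. Its RPKM of 0.356, 0.552 and 0.658 with 2 μM and 0.512, 0.266 and 0.361 with 10 μM lay above the 0.0742 to 0.0876 of untreated cells, and it averaged too little to enter the tests. In the fit without the filter its log2 fold change was 0.81 ± 0.12 with 2 μM (limma adjusted p = 0.00856) and 0.59 ± 0.11 with 10 μM (limma adjusted p = 0.0275).

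All 3 NR4A genes rose at both doses. NR4A1 reached 95.0, 86.2 and 129 with 2 μM and 78.8, 60.0 and 49.8 with 10 μM, against 5.34, 7.28 and 6.31 in untreated HCT116 cells. NR4A2 reached 26.6, 29.5 and 39.1 and then 21.2, 15.3 and 19.2, against 3.57, 3.72 and 4.22. NR4A3 reached 8.51, 7.75 and 10.3 and then 4.35, 2.87 and 4.47, against 0.167, 0.116 and 0.246. With 2 μM the ratio of means was 16.4 for NR4A1, 8.27 for NR4A2 and 50.2 for NR4A3, and NR4A3 passed the filter at either dose only because of its treated libraries. In bulk libraries, more cells that express a gene and more RNA per cell cannot be told apart. IER2 went from 45.3, 52.9 and 45.9 to 80.3, 96.6 and 109 with 2 μM and to 82.3, 76.4 and 66.2 with 10 μM. The corepressors moved the other way, with no overlap between treated and untreated libraries. The share of all genes without overlap against untreated cells is not given here, so a lack of overlap is a description only. NAB1 went from 24.3, 23.7 and 25.8 to 18.6, 19.8 and 19.4 with 2 μM and 16.8, 16.1 and 17.8 with 10 μM. NAB2 went from 27.7, 28 and 29.1 to 22.6, 21.5 and 24.1 with 2 μM and 21.4, 21.4 and 13.7 with 10 μM, the last being the library with the fewest reads.

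With 2 μM at 6 h, 9 of the 10 genes could be tested and 9 were called, 7 higher and 2 lower, where 47.3% of all genes were called and 15.5% were called higher. The log2 fold changes, from limma with standard errors, were 3.92 ± 0.15 for NR4A1, 3.78 ± 0.15 for NR4A3, 3.02 ± 0.16 for EGR3, 2.88 ± 0.13 for NR4A2, 2.76 ± 0.16 for EGR2, 2.23 ± 0.13 for EGR1 and 0.97 ± 0.11 for IER2. The adjusted p-values of these 7 genes from limma lay between 8.73e-07 and 0.000175. NAB1 fell by 0.34 ± 0.07 and NAB2 fell by 0.31 ± 0.07 on the log2 scale (limma adjusted p = 0.00276 and 0.00483). The median of all genes was -0.12, against which these values are to be read. With median-ratio scaling, which brings that median to 0.01, NAB1 and NAB2 kept their sign and lost their calls (limma adjusted p = 0.0537 and 0.0711). NAB2 also lost it with all HCT116 groups in one fit (0.0728).

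With 10 μM at 6 h the same 9 genes were tested and called in the same directions, where 30.0% of all genes were called and 8.84% were called higher. Limma's log2 fold changes ran from 3.20 ± 0.18 for NR4A1 through 2.68 ± 0.19 for NR4A3, 2.2 ± 0.18 for EGR3, 2.13 ± 0.14 for NR4A2, 1.76 ± 0.20 for EGR2 and 1.73 ± 0.13 for EGR1 to 0.64 ± 0.12 for IER2, with adjusted p-values between 0.000183 and 0.00783. NAB1 fell by 0.53 ± 0.09 and NAB2 fell by 0.60 ± 0.17 (limma adjusted p = 0.00676 and 0.0357). IER2 lost its call when each library was rescaled to the same RPKM sum, at a log2 fold change of 0.15 (limma adjusted p = 0.587). That scaling moved the median of all genes from -0.11 to -0.56. The NAB2 call was lost without any 1 of the 3 untreated replicates (limma adjusted p up to 0.118) and in the fit without the filter (0.0928). Without 10 μM replicate 3, the library with the fewest reads, NAB2 stayed called and fell by 0.39, and with libraries rescaled to the same RPKM sum it fell by 1.08.

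**Figure D2:**
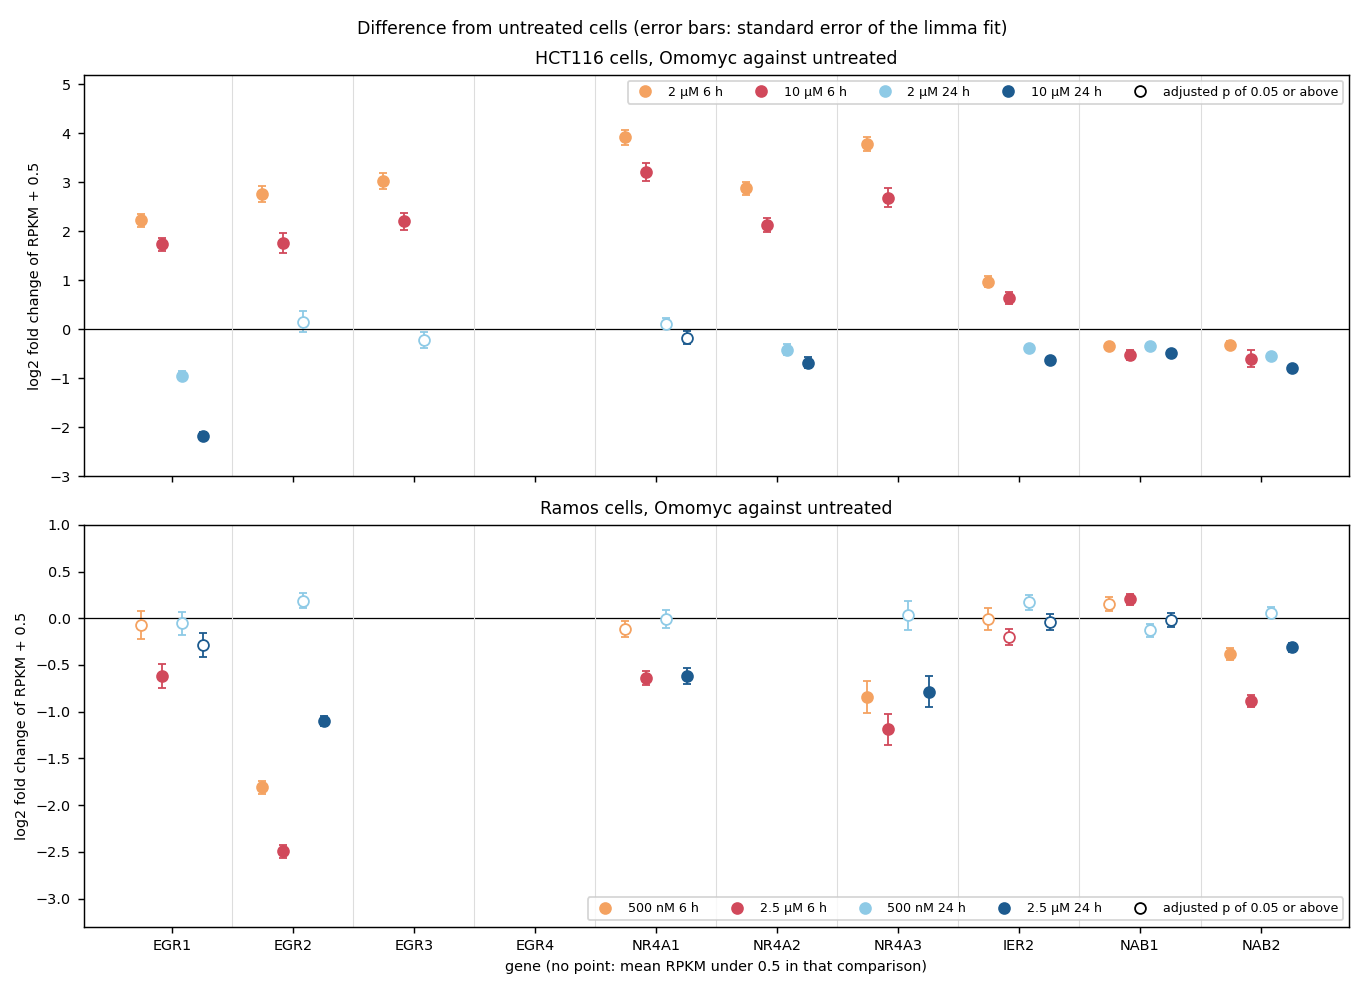
Log2 fold change of RPKM + 0.5 against untreated cells for each gene (x axis), dose and time (colors), with the standard error of the limma fit; open points had an adjusted p of 0.05 or above, and genes averaging under 0.5 RPKM have no point. In HCT116 cells NR4A1 is highest at 3.92, and in Ramos cells EGR2 is lowest at -2.50, both at 6 h.

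By 24 h in HCT116 cells none of the 10 genes was called above untreated cells, and EGR1, NR4A2, IER2, NAB1 and NAB2 were below them. EGR1 was at 9.85, 9.92 and 12.8 with 2 μM and at 4.47, 3.71 and 4.75 with 10 μM, or 51.2% and 20.3% of the untreated mean. Every treated library lay under the lowest untreated value of 20.3. NR4A2 was at 2.66, 3.13 and 2.46 and then 2.37, 2.2 and 2.05, below the 3.57 to 4.22 of untreated cells. NR4A1 overlapped the untreated libraries again, at 6.33 to 7.44 with 2 μM and 4.61 to 6.30 with 10 μM. NR4A3 did so too, at 0.164 to 0.378 and 0.173 to 0.196. EGR2 was at 0.730, 0.609 and 1.24 with 2 μM, overlapping the untreated libraries, and at 0.342, 0.115 and 0.316 with 10 μM, below them. EGR3 averaged 0.514 and 0.196 at these doses. IER2 was at 35.3 to 37.1 with 2 μM and 29 to 32.1 with 10 μM, under the lowest untreated 45.3. NAB1 was at 18.8 to 20.4 and 16.7 to 18.7, and NAB2 at 18.6 to 20.1 and 15.2 to 17.2, all below the untreated libraries.

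Of 8 genes tested with 2 μM at 24 h, 5 were called and all 5 were lower, where 27.3% of all genes were called. EGR1 fell by 0.94 ± 0.10, NAB2 fell by 0.55 ± 0.05, NR4A2 fell by 0.42 ± 0.11, IER2 fell by 0.39 ± 0.06 and NAB1 fell by 0.34 ± 0.06 on the log2 scale, with limma adjusted p-values between 0.000417 and 0.0238. The NR4A2 call was the weakest and was lost without untreated replicate 2 or 3 or 2 μM replicate 1 or 3 (limma adjusted p up to 0.0914), in the fit without the filter (0.0871) and with all HCT116 groups in one fit (0.0915). With 10 μM, 6 genes were tested and the same 5 were called lower, where 35.2% of all genes were called. EGR1 fell by 2.18 ± 0.09, NAB2 fell by 0.79 ± 0.06, NR4A2 fell by 0.68 ± 0.11, IER2 fell by 0.63 ± 0.07 and NAB1 fell by 0.49 ± 0.06, with limma adjusted p-values between 1.45e-06 and 0.00133. EGR2 and EGR3 averaged too little with 10 μM to be tested. In the fit without the filter EGR3 passed, at -0.77 ± 0.13 (limma adjusted p = 0.0140), and EGR2 did not, at -0.68 ± 0.19 (limma adjusted p = 0.0768). The study names EGR2 among genes lowered by Omomyc in its RNA-Seq, and reports by RT-PCR a significant decrease with 10 μM at 24 h. Mean RPKM of EGR2 here moved the same way, at 0.258 with 10 μM against 0.713 untreated.

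Set directly against the 6-h libraries, the 24-h libraries of HCT116 cells were lower for most of these genes. With 2 μM, 8 of 9 genes tested were called and all 8 were lower, where 40.8% of all genes were called. EGR1 at 24 h was 10.6% of its 6-h mean, EGR3 5.56%, NR4A1 6.59% and NR4A3 2.79%, and NR4A3 passed the filter only through its 6-h libraries. NAB2 was lower by the least, at 84.5% of its 6-h mean. Its call was lost without 6-h replicate 1 or 3 or any 1 of the 24-h replicates (limma adjusted p up to 0.118) and with libraries rescaled to the same RPKM sum (0.658). With 10 μM, 7 of 9 were called and all 7 were lower, where 7.86% of all genes were called, and EGR1 was 5.97% of its 6-h mean. EGR2, EGR3 and NR4A3 entered this comparison through their 6-h libraries. NAB1 was not called at either dose, with means of 19.3 (2 μM) and 16.9 (10 μM) at 6 h and 19.4 and 17.4 at 24 h.

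At 6 h in HCT116 cells, levels were lower with the higher dose without passing the test. For 8 of the 10 genes, all except EGR4 and IER2, every library with 10 μM lay below every library with 2 μM, as was the case for 10.8% of all genes tested. At 3 against 3 libraries the exact permutation test cannot give a two-sided p below 0.1, and no gene was called by limma in this comparison (0 of 14601, or 0.00%). At an unadjusted p under 0.05, limma passed 6 of the 9 genes tested and 1242 of all genes. Sharing one estimate of spread over all 5 HCT116 groups, limma called 4 of the 9 genes tested and 0.924% of all genes. Without replicate 3 of the 10 μM group, the library with the fewest reads, it called 1 of the 9 and 0.639% of all genes. At 24 h 8 of the 10 genes, all except EGR4 and NR4A3, were again lower with 10 μM without overlap. Of the 7 that passed the filter on low values, EGR2 only through its 2 μM libraries, 7 did so, against 10.6% of all genes tested. At 24 h the difference between the doses was called for EGR1 only among 7 genes tested, at a log2 difference of -1.24 ± 0.12 (limma adjusted p = 0.00577), where 0.180% of all genes were called. The call of EGR1 was lost in the fit without the filter on low values (limma adjusted p = 0.146).

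In Ramos cells EGR2 fell the most at 6 h, and of the genes tested NAB1 alone rose. EGR2 was at 32.7, 30.1 and 30.5 in untreated cells, at 9.09, 8.05 and 8.42 with 500 nM Omomyc and at 5.29, 5.23 and 4.8 with 2.5 μM, or 27.4% and 16.4% of the untreated mean. The 3 groups did not overlap. NR4A3 went from 2.12, 2.45 and 1.70 to 0.892, 0.805 and 1.13 with 500 nM and 0.613, 0.713 and 0.569 with 2.5 μM, again without overlap. NAB2 went from 25, 24.6 and 25.2 to 20.3, 17.5 and 19.4 and then 13.0, 14.4 and 12.5, in the same order of doses. EGR1 and NR4A1 passed the test with the higher dose. EGR1 was at 3.71, 2.90 and 4.12 with 500 nM, overlapping the untreated libraries, and at 2.07, 2.47 and 2.27 with 2.5 μM. NR4A1 was at 14.5, 11.8 and 12.7 and then 8.95, 8.48 and 9.15, against 15, 13.2 and 14.2. NAB1 was higher, at 17.5, 17.5 and 17.2 with 2.5 μM against 14.5, 16 and 14.7. EGR3, EGR4 and NR4A2 averaged at most 0.589 in any Ramos group and were not tested in the Ramos comparisons. EGR3 was nonetheless higher in each library with 500 nM (0.518, 0.653 and 0.596) than in any untreated library (0.240, 0.197 and 0.366), with a log2 fold change of 0.51 ± 0.12 that did not pass in the fit without the filter (limma adjusted p = 0.0639). NR4A2 was lower in each library with 2.5 μM (0.0538 to 0.0935) than in any untreated one (0.141 to 0.274), and did not pass there either (limma adjusted p = 0.0684).

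With 500 nM at 6 h, 3 of 7 genes tested were called and all 3 were lower, where 23.6% of all genes were called. EGR2 fell by 1.81 ± 0.07 (limma adjusted p = 4.32e-06), NR4A3 fell by 0.84 ± 0.17 (limma adjusted p = 0.00852) and NAB2 fell by 0.38 ± 0.07 (limma adjusted p = 0.00372). With 2.5 μM, 6 of 7 were called, 5 lower and 1 higher, where 27.9% of all genes were called. On the log2 scale EGR2 fell by 2.50 ± 0.07 (limma adjusted p = 9.66e-07) and NR4A3 fell by 1.19 ± 0.17 (limma adjusted p = 0.0013). NAB2 fell by 0.89 ± 0.06, NR4A1 fell by 0.64 ± 0.07 and EGR1 fell by 0.62 ± 0.13 (limma adjusted p = 6.6e-05, 0.000418 and 0.00824). NAB1 rose by 0.20 ± 0.06 (limma adjusted p = 0.0338), a call that was lost without untreated replicate 1 or 3 or any 1 of the treated replicates (limma adjusted p up to 0.106), with median-ratio scaling (0.0655) and in the fit without the filter (0.0507). IER2, at 16.1, 16.2 and 17.4 against 17.5 to 21.8, did not overlap the untreated libraries and did not pass (limma adjusted p = 0.106).

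At 24 h none of the genes tested was called with the lower dose in Ramos cells. With 500 nM, 0 of 7 genes tested were called, where 0.0146% of all genes (2 of 13674) were called, and 1 of the 7 and 763 of all genes passed an unadjusted p of 0.05 in limma. EGR2 was at 40.4, 33.2 and 33.3, just above the untreated libraries, with a log2 fold change of 0.19 ± 0.08 (limma adjusted p = 0.850). With 2.5 μM, 4 of 7 were called and all 4 were lower, where 4.61% of all genes were called. EGR2 was at 14.7, 13.6 and 14.4, or 45.8% of the untreated mean, and fell by 1.10 ± 0.06 (limma adjusted p = 0.000124). NR4A1 was at 7.97, 9.65 and 9.50 and fell by 0.62 ± 0.09, NR4A3 was at 0.901, 1.15 and 0.937 and fell by 0.79 ± 0.16, and NAB2 was at 20.6, 19.5 and 19.8 and fell by 0.31 ± 0.05 (limma adjusted p = 0.0116, 0.0340 and 0.0157). Of these, EGR2 alone stayed called without any 1 library. NR4A1 was lost without 2.5 μM replicate 3 (limma adjusted p = 0.0511), NAB2 without any 1 of the 2.5 μM replicates (up to 0.0912), and NR4A3 without untreated replicate 1 or 2 or any 1 of the 2.5 μM replicates (up to 0.135). In the fit without the filter NR4A1 and NR4A3 were lost (0.0704 and 0.126), and with libraries rescaled to the same RPKM sum NAB2 was, at -0.11 (0.274).

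In Ramos cells EGR2 and NAB2 were higher at 24 h than at 6 h at both doses. With 500 nM, 4 of 7 genes were called, EGR2, NR4A3 and NAB2 higher at 24 h and NAB1 lower, where 25.4% of all genes were called. EGR2 was 418% of its 6-h mean and NR4A3 226%. With 2.5 μM, 3 of 7 were called, EGR2 and NAB2 higher and NAB1 lower, where 23.0% of all genes were called, and EGR2 was 279% of its 6-h mean. Both NAB1 calls were lost without 1 of several libraries. At 500 nM these were replicates 1 and 2 of each time (limma adjusted p up to 0.0740), and at 2.5 μM any 6-h replicate and 24-h replicates 1 and 3 (up to 0.0801).

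The doses themselves differed in Ramos cells. At 6 h, 3 of 7 genes were lower with 2.5 μM than with 500 nM, where 0.429% of all genes were called. These were EGR2, at a log2 difference of -0.69 ± 0.08 (limma adjusted p = 0.0181), NR4A1, at -0.53 ± 0.08 (0.0268), and NAB2, at -0.50 ± 0.07 (0.0268). Their libraries did not overlap between doses, and the calls were not stable, with 0 to 1 of the genes called when any 1 library was left out and 0 in the fit without the filter. At 24 h, 4 of 7 genes were lower with 2.5 μM, where 4.25% of all genes were called. EGR2 differed by -1.29 ± 0.08 (limma adjusted p = 0.000246), NR4A3 by -0.82 ± 0.14 (0.0160), NR4A1 by -0.61 ± 0.10 (0.0149) and NAB2 by -0.37 ± 0.06 (0.0131). Without 2.5 μM replicate 3 the count was 1, EGR2, as it was in the fit without the filter. NR4A3 was also lost without replicate 1 of either dose (limma adjusted p up to 0.0565) and NAB2 without 2.5 μM replicate 2 (0.0687).

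The change from untreated cells was compared between the lines with 2 μM in HCT116 cells and 2.5 μM in Ramos cells, labelled doses that are close and not equal. At 6 h, 9 of 9 genes tested differed, 8 with the more positive change in HCT116 cells and NAB1 with the more negative, where 40.6% of all genes were called. The log2 fold change in HCT116 cells exceeded that in Ramos cells by 5.26 ± 0.18 for EGR2, 4.97 ± 0.19 for NR4A3, 4.56 ± 0.19 for NR4A1, 3.20 ± 0.19 for NR4A2, 2.96 ± 0.22 for EGR3, 2.85 ± 0.19 for EGR1, 1.18 ± 0.16 for IER2 and 0.58 ± 0.09 for NAB2, and for NAB1 the difference was -0.55 ± 0.08, with limma adjusted p-values between 2.22e-08 and 0.000332. EGR3 and NR4A2 entered this test through their levels in HCT116 cells, and NR4A3 was under the filter in untreated HCT116 cells. With libraries rescaled to the same RPKM sum NAB2 was no longer called (0.10, limma adjusted p = 0.515). EGR2 had opposite called changes at 6 h, a rise of 10.8-fold from a low level in HCT116 cells and a fall to 16.4% of a high level in Ramos cells, which left means of 7.69 and 5.11.

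At 24 h, 6 of 8 genes tested differed between the lines, 3 in each direction, where 16.3% of all genes were called. EGR2 (1.25 ± 0.23), NR4A3 (0.92 ± 0.20) and NR4A1 (0.73 ± 0.15) had the more positive change in HCT116 cells, and EGR1 (-0.65 ± 0.16), NAB1 (-0.32 ± 0.09) and NAB2 (-0.24 ± 0.06) the more negative, with limma adjusted p-values between 0.0051 and 0.0401. NR4A3 entered this test through its levels in Ramos cells, and NR4A2, which was not called, through those in HCT116 cells. NAB1 lost its call without replicate 1 or 3 of untreated HCT116, treated HCT116 or untreated Ramos cells or replicate 2 or 3 of treated Ramos cells (limma adjusted p up to 0.0972) and NAB2 without untreated HCT116 replicate 3, 2 μM replicate 1 or 2.5 μM replicate 1 (up to 0.0620) and with all 10 groups in one fit (0.364). NR4A1 lost its call with libraries rescaled to the same RPKM sum (limma adjusted p = 0.0716).

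**Figure D3:**
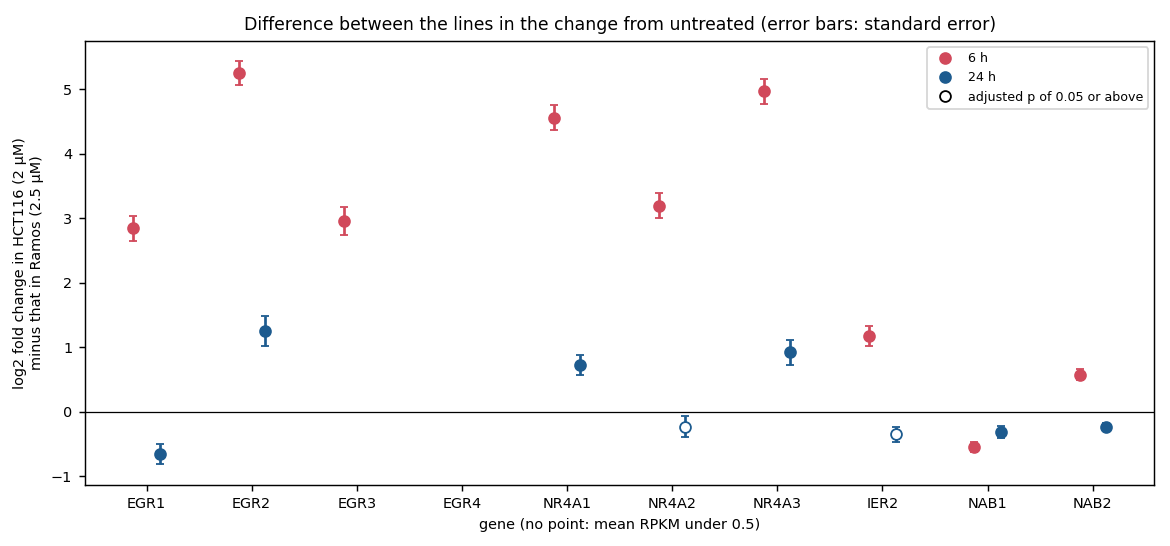
Log2 fold change against untreated in HCT116 cells (2 μM) minus that in Ramos cells (2.5 μM) for each gene at 6 h (red) and 24 h (blue), with standard errors; open points had an adjusted p of 0.05 or above. At 6 h EGR2 stands highest at 5.26 and NAB1 lowest at -0.55, and at 24 h the values lie between -0.65 and 1.25.

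The makeup of each family was compared on RPKM, per length. EGR1 held 83.8 to 95.1% of the summed EGR RPKM in every HCT116 library, and its mean share went from 93.4 ± 1.79% (SD, n = 3) in untreated cells to 85.3 ± 1.35% with 2 μM at 6 h, as EGR2 and EGR3 took 6.56% and 7.69%. In Ramos cells EGR2 held 87.6 ± 0.641% of the untreated sum and 64.9 ± 1.92% with 2.5 μM at 6 h, where EGR1 held 28.8 ± 2.42%. The summed EGR RPKM was 22.7 in untreated HCT116 cells, 120 with 2 μM at 6 h and 4.8 with 10 μM at 24 h, and in Ramos cells it was 35.5 untreated and 7.88 with 2.5 μM at 6 h. NR4A1 held the largest share of the NR4A sum in all 30 libraries, and NR4A2 held 37.3 ± 3.34% of it in untreated HCT116 cells and 1.29 ± 0.423% in untreated Ramos cells. The NAB2 to NAB1 ratio in Ramos cells was 1.66 ± 0.106 untreated, 1.14 ± 0.0872 with 500 nM and 0.763 ± 0.0516 with 2.5 μM at 6 h, and the libraries of these 3 groups did not overlap. In HCT116 cells it was 1.15 ± 0.0263 untreated, 1.18 ± 0.0851 with 2 μM at 6 h and 0.936 ± 0.112 with 10 μM at 24 h. These shares are descriptions and were not tested.

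**Figure D4:**
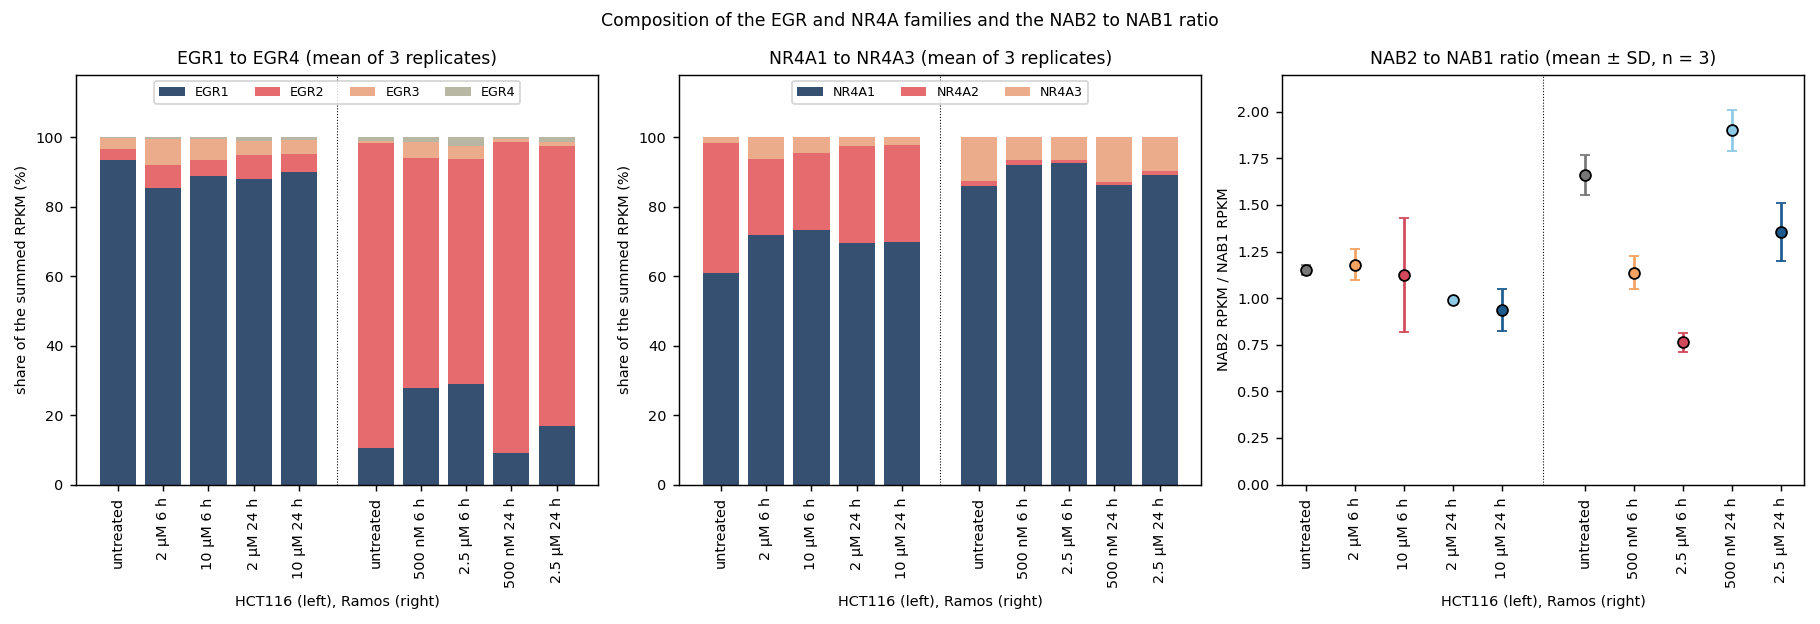
Mean share of the summed RPKM held by each EGR gene (left) and each NR4A gene (middle) in the 10 groups, and the NAB2 to NAB1 ratio of RPKM (right, mean ± SD, n = 3), with HCT116 groups left and Ramos groups right of the dotted line. EGR1 fills most of each HCT116 bar and EGR2 most of each Ramos bar, and the ratio is lowest, at 0.763, in Ramos cells with 2.5 μM at 6 h.

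The order of the levels over all 10 groups differed between the genes. EGR1 was highest in HCT116 cells with 2 μM at 6 h, then 10 μM at 6 h, untreated and 2 μM at 24 h, with no overlap between neighbors. The means of HCT116 cells with 10 μM at 24 h (4.31) and of 4 Ramos groups (2.99 to 3.77) followed in an overlapping run, and Ramos cells with 2.5 μM at 6 h were lowest, at 2.27, without overlap. For EGR2, Ramos cells with 500 nM at 24 h (35.6) and untreated (31.1) came first, and Ramos cells with 500 nM at 6 h (8.52) overlapped HCT116 cells with 2 μM at 6 h (7.69). NR4A1 ran from 103 and 62.9 in the 6-h HCT116 groups through 14.1 in untreated Ramos cells to 5.54 in HCT116 cells with 10 μM at 24 h. NAB1 spanned less, from 24.6 in untreated HCT116 cells to 13.7 in Ramos cells with 500 nM at 24 h, and most of its neighbors overlapped.

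Over the 15 HCT116 libraries, the genes whose log2(RPKM + 0.5) followed EGR1 most closely among 11647 genes averaging at least 2 RPKM were KLF5 (Pearson r = 0.9797), IER2 (0.9750), DUSP1 (0.9741), FOSB (0.9738) and KLF4 (0.9728). EGR3 was 9th at 0.9578, NR4A2 11th at 0.9526, EGR2 24th at 0.9383, NR4A1 53rd at 0.9132 and NR4A3 72nd at 0.8984. NAB1, at 0.0066, and NAB2, at 0.3408, did not follow it. Over the 15 Ramos libraries the closest of 10654 genes were WNK1 (0.9197), BIK (0.8734), DDIT3 (0.8691), NFATC2 (0.8682) and MEF2C (0.8487). There NR4A1 was 14th at 0.8126 and NAB2 15th at 0.8103, with EGR2 at 0.6824, IER2 at 0.6223 and NAB1 at -0.5023. These libraries share treatments and controls, so r describes the pattern over groups and carries no test.

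Other immediate early genes, a list of 30, were also mostly higher at 6 h in HCT116 cells. At 6 h with 2 μM, 23 of 30 were called higher and 2 lower, with a median log2 fold change of 0.76 against -0.12 over all genes, of which 15.5% were called higher. CCN1 and CCN2, matricellular genes, were higher by 4.54 and 4.18, the stress factor ATF3 by 3.17 and JUN by 2.76. With 10 μM, 19 were higher and 5 lower (median 0.80 against -0.11), led by the same 4 genes, with CCN1 at 4.57. At 24 h with 10 μM, 22 of 30 were lower and 0 higher (median -0.37 against 0.02), where 35.2% of all genes were called. FOS fell by 3.58 and FOSB fell by 2.82, DUSP1, an ERK and stress kinase phosphatase, fell by 0.96 and JUNB fell by 0.92. With 2 μM, 11 were lower and 2 higher (median -0.17 against 0.04), where 27.3% of all genes were called. In Ramos cells 24 of the 30 could be tested. At 6 h, 5 were lower and 2 higher with 500 nM, and 9 were lower and 1 higher with 2.5 μM (median -0.09 against 0.03), where 23.6% and 27.9% of all genes were called, led by PHLDA1 at -1.38 and DUSP2 at -1.29. At 24 h, 0 were called with 500 nM and 4 were lower with 2.5 μM, where 0.0146% and 4.61% of all genes were called.

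The known inducers and brakes of these genes were followed as well. Of 16 upstream regulators (SRF and its cofactors, CREB and its coactivators, and the ERK, RSK and MSK kinases), 2 were higher and 6 lower with 2 μM at 6 h in HCT116 cells, with a median of -0.11 against -0.12 for all genes, so that 8 of 16 were called where 47.3% of all genes were. SRF, whose protein binds CArG boxes, was higher by 1.36 with 2 μM and 1.16 with 10 μM, and MAPK3, which encodes ERK1, fell by 0.53 and fell by 0.78. In Ramos cells SRF was higher by 0.28 with 500 nM and 0.35 with 2.5 μM at 6 h. Of 11 genes of ERK feedback, 2 were higher and 5 lower with 2 μM at 6 h in HCT116 cells, and 1 higher and 5 lower with 10 μM, where 47.3% and 30.0% of all genes were called. DUSP5, a phosphatase of nuclear ERK, was higher by 2.40 and 1.93, whereas ETV5 fell by 0.79 and fell by 1.11, and DUSP6, a phosphatase of cytoplasmic ERK, fell by 0.60 and fell by 0.90. At 24 h with 10 μM, 8 of 11 were lower and 0 higher, where 35.2% of all genes were called, with DUSP6 at -1.56. In Ramos cells 3 of the 11 could be tested. At 6 h 2 were lower and 1 higher with 500 nM and with 2.5 μM, where 23.6% and 27.9% of all genes were called. DUSP5 fell by 1.84 and fell by 1.91 at these doses, and ETV4 fell by 1.21 and fell by 1.13. SPRED2 went the other way, higher by 0.26 and 0.51. DUSP5 shared the direction of EGR2 and NR4A3 in both lines at 6 h.

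Genes that work with EGR or NR4A proteins, or bind like sites, were lower or not called in HCT116 cells. Of 8 such genes, 6 could be tested in HCT116 cells and all 6 were lower with 2 μM at 6 h (median -0.45 against -0.12), 4 with 10 μM at 6 h, 2 with 2 μM and 5 with 10 μM at 24 h. Of all genes, 47.3%, 30.0%, 27.3% and 35.2% were called in these comparisons. RXRB, a dimer partner of NR4A1 and NR4A2, fell by 0.92 with 2 μM at 6 h, and SP1, which binds GC boxes, fell by 0.54. In Ramos cells 5 were tested, and at 6 h SP3 was higher and CHD4, a chromatin remodeler to which NAB2 binds, lower at both doses, with 0.28 and -0.30 at 500 nM. Of all genes, 23.6% were called with 500 nM and 27.9% with 2.5 μM at that time.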

How the data were processed

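RNA-Seq libraries were prepared with a stranded total RNA kit after depletion of ribosomal RNA, per the labels. The authors deposited 1 table of RPKM values for 57992 Ensembl genes in 30 libraries, and their processing notes name RSEM. The aligner, genome build and annotation are not given in the sources used here. The deposited RPKM values are not counts, and the value of 1 read was inferred from genes with a single annotated transcript. It was then applied to EGR4, which has 2 annotated transcripts, and gave near-whole numbers of reads. Reads were not inferred for all genes, and no count test was run.

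Symbols and positions came from GENCODE release 29, and promoter windows from RefSeq (GRCh38.p14). Groups followed the labels, and all columns were matched to a sample. Each of 19 comparisons was fitted with limma 3.58.1 (R 4.3.3, eBayes with trend) on log2(RPKM + 0.5), on genes averaging at least 0.5 RPKM over the libraries compared, with Benjamini-Hochberg adjustment over all genes and a threshold of 0.05. The fit was tried on simulated data of constant spread, with changes placed only in genes averaging at least 2 RPKM. That trial does not cover genes with lower values. The named genes were the 10 chosen genes in every comparison, the list genes with the largest called changes, and the 5 genes most like EGR1 in each line. The genes, the lists and the tests were chosen with earlier results of these data known. Alternatives were pseudocounts of 0.1 and 1, no filter or a minimum of 2 RPKM, median-ratio scaling, an equal RPKM sum, a replicate block, all groups in one fit and leaving out each library. Precision was taken from the spread between libraries, since depth was only inferred.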

Additional observations from a re-analysis of the deposited data

Results flagged for a closer look

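The time of treatment and the cell line separated groups by a test of the difference itself, in limma on log2(RPKM + 0.5). Between 24 and 6 h with 2 μM in HCT116 cells, the log2 difference was -3.17 for EGR1, -2.61 for EGR2, -3.25 for EGR3, -3.81 for NR4A1, -3.3 for NR4A2, -3.65 for NR4A3, -1.36 for IER2 and -0.24 for NAB2. With 10 μM it was -3.91 for EGR1, -2.43 for EGR2, -2.97 for EGR3, -3.38 for NR4A1, -2.81 for NR4A2, -2.66 for NR4A3 and -1.27 for IER2. In Ramos cells with 500 nM it was 2.00 for EGR2, 0.87 for NR4A3, -0.28 for NAB1 and 0.44 for NAB2, and with 2.5 μM 1.39 for EGR2, -0.22 for NAB1 and 0.57 for NAB2. The NAB2 call in HCT116 cells and both NAB1 calls in Ramos cells were lost when several single libraries were left out. NR4A3 at both HCT116 doses, and EGR2 and EGR3 with 10 μM, passed the filter only through their 6-h libraries.

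The change from untreated cells in HCT116 (2 μM) minus that in Ramos cells (2.5 μM) at 6 h was 2.85 for EGR1, 5.26 for EGR2, 2.96 for EGR3, 4.56 for NR4A1, 3.20 for NR4A2, 4.97 for NR4A3, 1.18 for IER2, -0.55 for NAB1 and 0.58 for NAB2. At 24 h it was -0.65 for EGR1, 1.25 for EGR2, 0.73 for NR4A1, 0.92 for NR4A3, -0.32 for NAB1 and -0.24 for NAB2. The 24-h calls of NAB1 and NAB2 were lost when several single libraries were left out. Those of EGR1 and NR4A1 at 24 h, and of NAB2 at 6 h, were each lost under another alternative. EGR3 and NR4A2 passed the filter at 6 h through HCT116 cells, and NR4A3 at 24 h through Ramos cells. The lines differ in dose and in tissue of origin, and these cannot be told apart. HCT116 cells were treated with a transfection reagent, and how Ramos cells were treated is not described in the methods used here.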

How the results depend on the processing

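Of 94 calls on these genes, 69 held under every alternative run. Of 1398 values under alternatives, 112 lost significance with the same sign and 0 reversed, and the cause was not tested. The count of genes called moved by over 1.5 times in 6 comparisons. Against untreated Ramos cells, 2.5 μM at 24 h went from 4 to 2 without the filter and to 1 to 4 without 1 library (1 without 2.5 μM replicate 3). In HCT116 cells, 10 against 2 μM went from 0 to 4 with all groups in one fit at 6 h, and to 0 to 1 without 1 library, and from 1 to 0 without the filter at 24 h. Between the Ramos doses, the count went from 3 to 0 without the filter, 1 with an equal RPKM sum and 0 to 1 without 1 library at 6 h, and from 4 to 1 without the filter and to 1 to 4 without 1 library at 24 h. An equal RPKM sum moved the share of calls that were higher over all genes from 32.7 to 6.76% with 2 μM at 6 h in HCT116 cells, and median-ratio scaling moved it to 53.8%. With 10 μM at 6 h it went from 29.4 to 4.28% and 47.6% under the same settings. An equal RPKM sum moved it from 60.6 to 23.0% with 2 μM and from 55.3 to 20.4% with 10 μM at 24 h, and at 6 h in Ramos cells from 58.7 to 79.8% with 500 nM and from 61.8 to 85.2% with 2.5 μM. With 2.5 μM at 24 h in Ramos cells 627 genes were called, 350 with median-ratio scaling and 5362 with an equal RPKM sum.

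Replicate numbers did not pair the libraries. Correlations of same-numbered deviations lay between -0.3029 and 0.1842, and no comparison had all 3 above 0.1. With the replicate block, 2 genes were called for 2.5 μM at 24 h against untreated Ramos cells, 0 between the Ramos doses at 6 h and 3 between the lines at 24 h, against 4, 3 and 6 without it. Between the lines at 24 h, EGR1, NAB1 and NAB2 were lost with it (limma adjusted p = 0.0505, 0.0658 and 0.0809). NR4A2 with 2 μM at 24 h in HCT116 cells (0.0553), NAB1 with 2.5 μM at 6 h in Ramos cells (0.0662) and NR4A1 between the Ramos doses at 24 h (0.0506) were lost too.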
